A study of Homo sapiens with 9 samples.

Results

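Semaphorins, their plexin and neuropilin receptors, and the ephrins are families of guidance proteins, and their genes were read here by symbol. Every symbol of the deposited table that starts with SEMA3 to SEMA7 or with PLXNA, PLXNB, PLXNC or PLXND, or that names a neuropilin (NRP1, NRP2) or an A-type or B-type ephrin (EFNA or EFNB and a digit), was taken. The rule found 41 of 26475 symbols, 39 of them sense genes and 2 antisense genes (SEMA3B-AS1 and SEMA6A-AS1). It used names only, no measured value. The filter on low counts left 16417 genes to test, among them 39 of the 41 symbols (38 sense genes). The untested ones were SEMA6A-AS1 and SEMA5B, which had 0 counts in all 9 libraries, where 3 counts would equal 0.0577 to 0.0709 CPM (counts scaled to the size of the library).

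The cells were A375, a human melanoma line with an activating mutation in BRAF, grown in culture. For 24 h they received TP-472 at 5 µM or at 10 µM, or DMSO, the vehicle, with 3 libraries of RNA per group, which the series describes as biological replicates. TP-472 is a small molecule that binds the bromodomains of BRD9 and BRD7, readers of acetylated chromatin. All 9 libraries come from the same line, so the results describe that line only, and the groups differ in the compound and its dose alone as far as the labels say.

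Class 3 semaphorins are secreted and signal through complexes of a neuropilin, which binds the ligand, and a plexin, which carries the signal into the cell. Semaphorins of classes 4 to 7 stay on the cell surface and bind plexins directly, and SEMA7A, held by a lipid anchor, also binds integrins. Ephrins sit in the membrane of one cell and bind Eph receptor tyrosine kinases on its neighbour; the A type has a lipid anchor and the B type spans the membrane. These families steer neural crest cells, the embryonic source of melanocytes, and are known in melanoma for effects on migration, blood vessel growth and invasion.

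The libraries held 42483091 to 51298130 counts each. The table carried A375 melanoma transcripts at the level of SOX10, a neural crest and melanocyte factor, with 416.5 CPM ± 11 (SD, n = 3) in DMSO, while the pigment genes TYR and DCT were at 0 CPM in every DMSO library and MLANA averaged 0.173 CPM. Between 8.20% and 19.9% of the counts in a library belonged to ribosomal RNA genes, and both extremes were 10 µM libraries. The library 10 µM replicate 1 stood apart from replicates 2 and 3 of its dose. A trend in gene length and GC explained 8.29% of how its genes deviated from the group mean, against 3.37% and 4.39% in those replicates and at most 0.425% in the other libraries, so results that rest on it are also given without it. The 11 melanocyte and melanoma markers summed to between 1762 and 1784 CPM in DMSO, between 1346 and 1381 at 5 µM and between 1063 and 1220 at 10 µM, with CSPG4 and NGFR called lower at both doses. CSPG4 alone averaged 704.5 CPM in DMSO, 445.9 at 5 µM and 228.8 at 10 µM. The other 7 of the 9 tested markers were not called at either dose, SOX10 and MITF among them. The median log2 fold change of the tested markers at 10 µM was -0.13. Among markers of other cells, the immune gene CD3E was at 0 in each group, and PTPRC and CD14 averaged at most 0.211 and 0.658 CPM in a group. The 4 endothelial genes summed to between 7.75 and 9.55 CPM in DMSO. The sum was between 4.28 and 5.81 CPM at 5 µM and between 4.61 and 5.71 at 10 µM. TIE1, which held most of the DMSO sum, averaged 5.7, 2.9 and 1.9 CPM in order of dose and was called lower at both doses. PECAM1, VWF and CDH5 were called at neither dose. At 10 µM the log2 fold change was -0.57 for PECAM1, 0.31 for VWF and 1.09 for CDH5, with a median of -0.13 over the 4 genes. The 4 fibroblast genes summed to between 5.86 and 6.86 CPM in DMSO, between 6.13 and 7.14 at 5 µM and between 3.08 and 4.67 at 10 µM, where PDGFRA was called lower, and the 4 epithelial genes stayed between 6.52 and 10.9 CPM over all libraries. PDGFRA averaged 3.3, 2.1 and 0.98 CPM in DMSO, at 5 µM and at 10 µM. In the same order LUM had 2.4, 3.7 and 2.3 CPM and DCN 0.66, 0.78 and 0.67 CPM, and neither was called against DMSO. The part of these markers in the results was not tested.

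Each comparison was made with edgeR's quasi-likelihood test on the rounded expected counts, and a gene was called where its level differed at least 1.5-fold with an adjusted p, Benjamini-Hochberg over all genes tested, under 0.05. Against DMSO, 6 of the 39 tested members were called lower at 5 µM (15.4%, against 2.72% of all genes tested) and 1 was called higher (2.56%, against 2.14%). At 10 µM, 14 members were called lower (35.9%, against 10.5% of all genes) and 1 higher (2.56%, against 8.57%). The median log2 fold change over the tested members was -0.25 at 5 µM and -0.39 at 10 µM, beside 0.0054 and 0.011 over all genes tested. Both comparisons use the same DMSO libraries.

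The 6 genes that fell at 5 µM were SEMA3A, SEMA3F, SEMA4B, SEMA6B, EFNA3 and EFNB3, and all of them were also called lower at 10 µM. The further 8 at 10 µM were SEMA3C, SEMA3D, SEMA4C, SEMA4G, NRP1, PLXNA1, PLXND1 and EFNA5. The member that rose, at both doses, was SEMA6A. A CPM value is a share of the RNA of a library, so a lower value in every cell and a loss from some of the cells cannot be told apart.

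**Figure D1:**
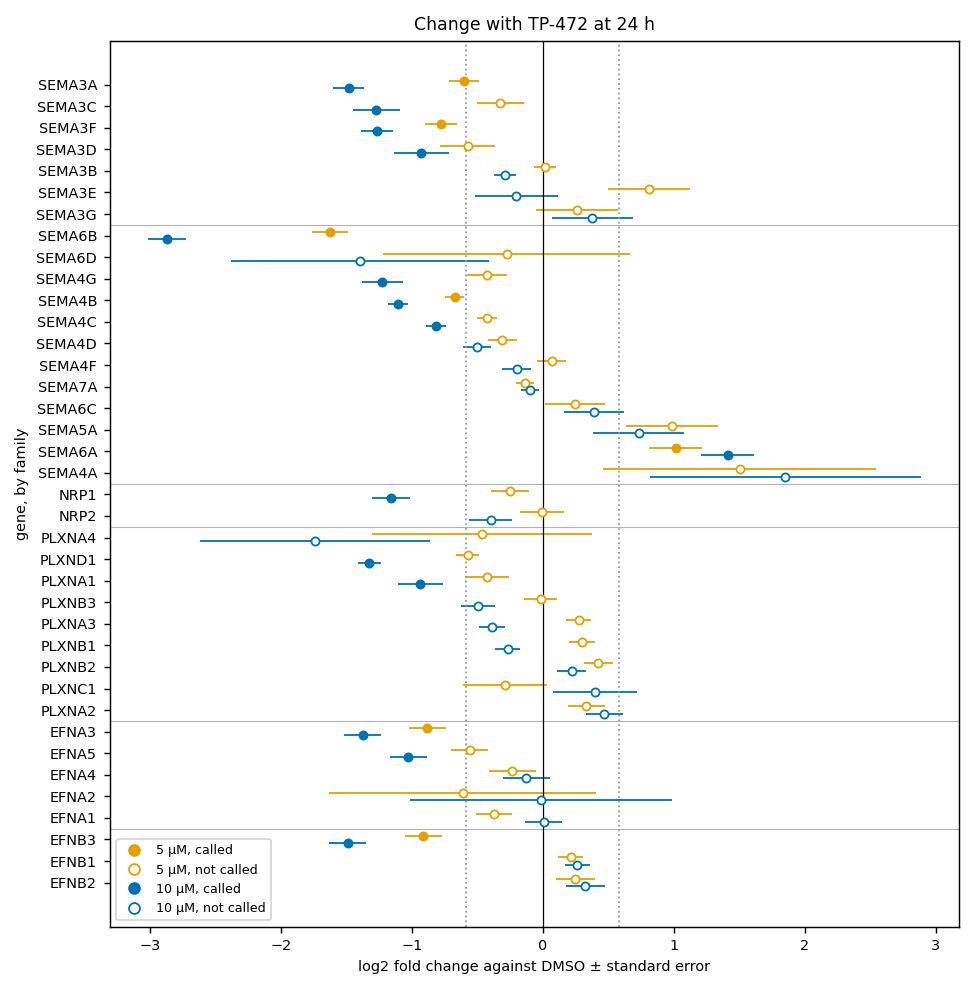
Log2 fold change against DMSO of the 38 tested sense genes at 5 µM (orange) and 10 µM (blue), ordered by family; points are the fitted values, bars their standard errors, filled points the called genes, and dotted lines a fold change of 1.5. SEMA6B lies farthest left among the called genes and SEMA6A is the filled point on the right, while the widest bars belong to genes with little RNA such as SEMA6D, SEMA4A, PLXNA4 and EFNA2.

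Levels between genes were set side by side as CPM per kb of exonic length. In DMSO the ligand SEMA3B was the highest of the class 3 semaphorins at 46.2 CPM per kb ± 0.17 (SD, n = 3), followed by SEMA3C at 39.7 ± 0.46 and SEMA3A at 15.7 ± 0.42. SEMA7A led the membrane-bound semaphorins at 24.6 CPM per kb ± 0.31, with SEMA6B at 19.2 ± 0.18. Of the receptors, PLXNB2 stood at 30.5 CPM per kb ± 0.43, NRP1 at 21.2 ± 0.31, PLXNA1 at 10.3 ± 0.16 and PLXNB3 at 10.1 ± 0.15, the last pair differing by less than the sum of their SDs. Of the ephrins, EFNA1 at 11.4 CPM per kb ± 0.19 led the A type and EFNB2 at 7.68 ± 0.41 the B type. At the other end, SEMA4A had 0.0123 CPM per kb ± 0.010, SEMA6D 0.0581 ± 0.015, PLXNA4 0.107 ± 0.0080 and SEMA3E 0.129 ± 0.026, and the standard errors of their log2 fold changes at 10 µM ran from 0.32 (SEMA3E) to 1.035 (SEMA4A).

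**Figure D2:**
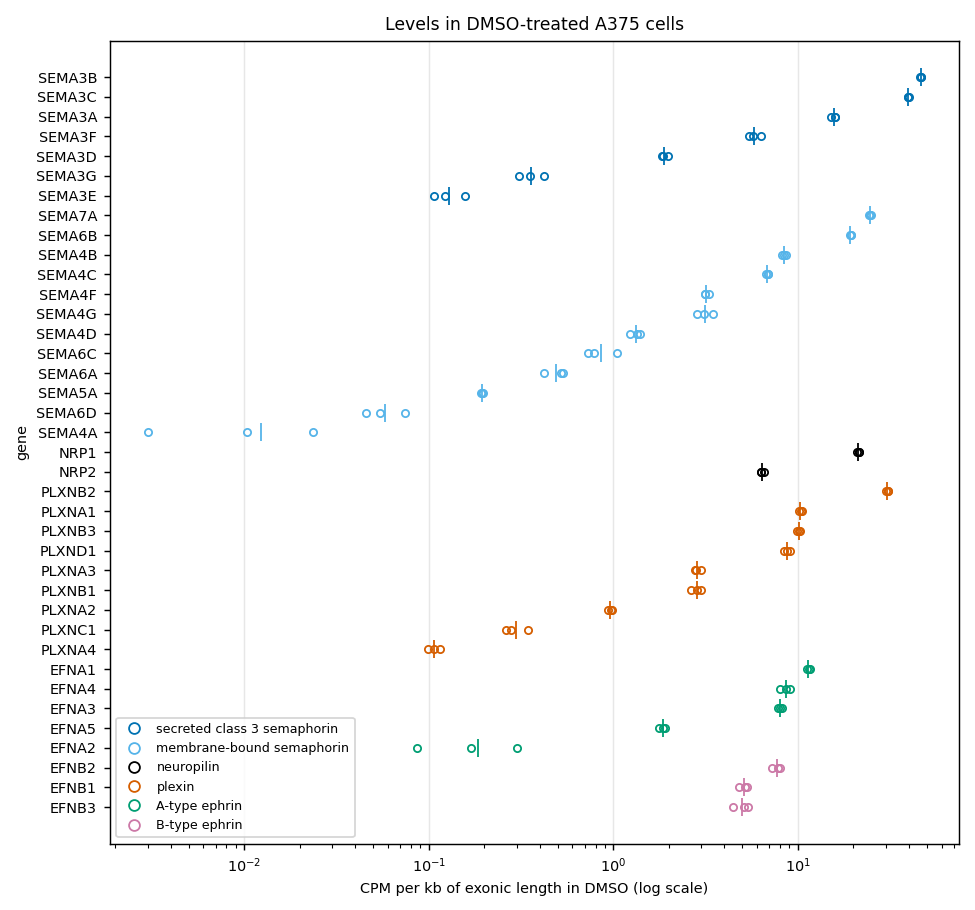
Level of the members in DMSO, as CPM per kb of exonic length on a log axis; circles are the 3 libraries and ticks their mean, coloured by family, with SEMA5B (0 counts) and the antisense genes left out. The members span from 0.0123 CPM per kb for SEMA4A to 46.2 for SEMA3B.

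Among the 7 secreted class 3 semaphorins, 4 fell at 10 µM and 0 rose, with 0 also by DESeq2, by limma-voom and at an unadjusted p under 0.05 in edgeR. Over all genes tested, 10.5% were called lower and 8.57% higher at that dose. SEMA3A, a ligand known to collapse growing axons through NRP1, is at chr7:83955777-84492724 (GRCh38). Its 3 libraries held 149.2, 142.1 and 148.6 CPM in DMSO, 92.4, 95.7 and 102.3 CPM at 5 µM, and 42.4, 56.5 and 58.5 CPM at 10 µM. The groups did not overlap, and the level fell with each dose. The log2 fold change was -0.60 (SE 0.11, adjusted p = 0.0092) at 5 µM and -1.48 (SE 0.12, adjusted p = 1.15e-05) at 10 µM. The call at 5 µM was near the fold limit and was lost without 5 µM replicate 1 (log2 fold change -0.57, adjusted p = 0.0541).

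SEMA3C, a secreted ligand that binds both neuropilins, lies at chr7:80742538-80922359. It was read at 246.7, 251.9 and 247.1 CPM in DMSO, at 198.1, 203.4 and 193.8 CPM at 5 µM, and at 67.9, 123.3 and 117.8 CPM at 10 µM. The lowest value is that of 10 µM replicate 1, and every 10 µM library lies below every other one. The change at 5 µM, -0.33 (SE 0.18, adjusted p = 0.312), was not called, and that at 10 µM was -1.27 (SE 0.18, adjusted p = 0.000553), or -1.05 without 10 µM replicate 1.

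SEMA3F, a ligand of NRP2 studied as a suppressor of metastasis, had 26.1, 27.5 and 30.5 CPM in DMSO, 15.6, 16.3 and 17.2 CPM at 5 µM, and 10.4, 10.7 and 13.9 CPM at 10 µM. The ranges of the 3 groups stayed apart. It fell by 0.78 on the log2 scale at 5 µM (SE 0.12, adjusted p = 0.0035) and by 1.27 at 10 µM (SE 0.12, adjusted p = 5.28e-05). SEMA3D also fell at 10 µM (-0.93, SE 0.21, adjusted p = 0.00697), from 15.2 CPM ± 0.58 (SD, n = 3) in DMSO to 7.99 CPM ± 2.6. Without 10 µM replicate 1, in which it had 5.16 CPM, its value was -0.70.

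SEMA3B, the class 3 gene with the most RNA per kb, had 267.2, 266.8 and 265.3 CPM in DMSO, 265.2, 286.4 and 255.6 CPM at 5 µM, and 242.6, 210.9 and 199.9 CPM at 10 µM. The 10 µM libraries lay below the DMSO libraries, but the difference (-0.29, SE 0.084, adjusted p = 0.023) is a fold of 1.22 and was not called. With a trend in gene length and GC removed it was -0.07 (adjusted p = 0.357). Without 10 µM replicate 1, the highest SEMA3B library at that dose, it was -0.38 (adjusted p = 5.27e-06), still under the fold limit. The remaining SEMA3E and SEMA3G were not called at either dose, with DMSO means of 1.09 and 1.80 CPM. At 5 µM all SEMA3E libraries lay above those of DMSO (0.81, unadjusted p = 0.0282 and adjusted p = 0.144 in edgeR). The fit of only the groups compared called SEMA3E higher at 5 µM. The 7 genes summed to 109.7 CPM per kb ± 0.27 (SD, n = 3) in DMSO, 93.9 ± 3.3 at 5 µM (85.6% of DMSO) and 63.8 ± 3.0 at 10 µM (58.1%). The share of SEMA3B in that sum went from 42.1% ± 0.25 in DMSO to 59.5% ± 8.6 at 10 µM. SEMA3C took 36.2% ± 0.38 in DMSO and 25.6% ± 6.7 at 10 µM.

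Of the 13 membrane-bound semaphorins, 12 were tested, and 4 were called lower and 1 higher at 10 µM. These are 33.3% and 8.33% of those tested, against 10.5% and 8.57% of all genes tested. SEMA6B, a transmembrane ligand of A-type plexins at chr19:4542593-4559808, had the largest fold change of any called member. The DMSO libraries held 85.1, 84.0 and 85.5 CPM, the 5 µM libraries 28.7, 28.3 and 25.4 CPM, and the 10 µM libraries 14.5, 10.9 and 9.46 CPM. No group overlapped another, and 10 µM replicate 1 was the highest of its dose. The log2 fold change was -1.63 at 5 µM (SE 0.14, adjusted p = 0.000101), a 3.09-fold lower level, and -2.87 at 10 µM (SE 0.14, adjusted p = 8.08e-07), a 7.31-fold lower level.

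SEMA6A, the transmembrane paralog at chr5:116443616-116574934, moved the other way. It had 5.72, 4.59 and 5.84 CPM in DMSO, 11.8, 9.14 and 11.7 CPM at 5 µM, and 10.3, 17.6 and 15.1 CPM at 10 µM. All 6 TP-472 libraries exceeded the DMSO libraries, and the doses overlapped. It rose by a log2 fold change of 1.02 at 5 µM (SE 0.20, adjusted p = 0.0115) and 1.41 at 10 µM (SE 0.20, adjusted p = 0.000562). The call at 5 µM was lost without DMSO replicate 2 (adjusted p = 0.0646), 5 µM replicate 1 (adjusted p = 0.0545) or 5 µM replicate 3 (adjusted p = 0.0543), while that at 10 µM held without each library. SEMA6A shares reads with its antisense gene, as the fractional counts of the pair add up to whole numbers in 9 of 9 libraries (within 0.011). The antisense gene averaged at most 0.328 CPM in a group, and with its counts added the changes were 0.98 and 1.40.

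SEMA4B, a class 4 semaphorin, had 58.6, 57.1 and 60.4 CPM in DMSO, 34.9, 38.7 and 36.9 CPM at 5 µM, and 26.8, 27.1 and 28.0 CPM at 10 µM. The libraries of each group lay close together and the groups were far apart. It fell by 0.67 (SE 0.073, adjusted p = 0.000474) and by 1.11 on the log2 scale (SE 0.074, adjusted p = 4.48e-06) at 5 and 10 µM. SEMA4C fell at 10 µM from 42 CPM ± 0.43 (SD, n = 3) to 23.9 CPM ± 1.6 (-0.82, SE 0.077, adjusted p = 4.1e-05).

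SEMA4G had 14.99, 18.2 and 16.2 CPM in DMSO, 11.0, 12.4 and 13.4 CPM at 5 µM, and 5.68, 6.84 and 8.54 CPM at 10 µM, where it was called lower (-0.42, adjusted p = 0.117, at 5 µM and -1.23, SE 0.16, adjusted p = 0.000281, at 10 µM). Its counts rest in part on how reads were divided between genes. SEMA4G (chr10:100969518-100985871, plus strand) overlaps the mitochondrial ribosomal protein gene MRPL43 on the minus strand over 27.4% of its exonic length, and the fractional counts of the pair sum to whole numbers in 9 of 9 libraries. MRPL43 was at 52.8 CPM ± 1.7 (SD, n = 3) in DMSO and 59.99 CPM ± 13 at 10 µM and was not called (0.18, adjusted p = 0.319). With both counts added, the change at 10 µM was -0.05 (adjusted p = 0.785). MRPL43 holds most of that sum, so a fall of SEMA4G alone could not bring the sum to the fold limit. The summed value therefore cannot tell whether SEMA4G itself fell.

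SEMA7A had 94.2, 93.9 and 92.0 CPM in DMSO, 80.3, 88.5 and 86.1 CPM at 5 µM, and 85.8, 85.1 and 90.6 CPM at 10 µM. Both doses lay below DMSO by little (-0.14, adjusted p = 0.266, and -0.10, adjusted p = 0.301), and neither was called. Its share of the membrane-bound sum was 36.0% ± 0.58 (SD, n = 3) in DMSO and 55.7% ± 0.53 at 10 µM, while that of SEMA6B was 28.2% ± 0.14 and 6.41% ± 1.5. The sum itself was 68.3 CPM per kb ± 0.29 in DMSO, 48.1 ± 1.9 at 5 µM and 41.2 ± 1.0 at 10 µM, 70.5% and 60.4% of the DMSO level. SEMA5A, not called at either dose in the main edgeR fit, had 2.33, 2.31 and 2.36 CPM in DMSO, 5.98, 3.78 and 4.13 CPM at 5 µM, and 1.82, 5.06 and 4.77 CPM at 10 µM. With all libraries it was called higher at 5 µM by DESeq2 (0.985, adjusted p = 0.0477) and with the length and GC trend removed (0.973, adjusted p = 0.0426). The fit of only the groups compared also called it at 5 µM (0.986, adjusted p = 0.00121). Without 10 µM replicate 1, its lowest library, it was called higher at both doses (0.98, adjusted p = 0.00106, and 1.07, adjusted p = 0.000631).

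**Figure D3:**
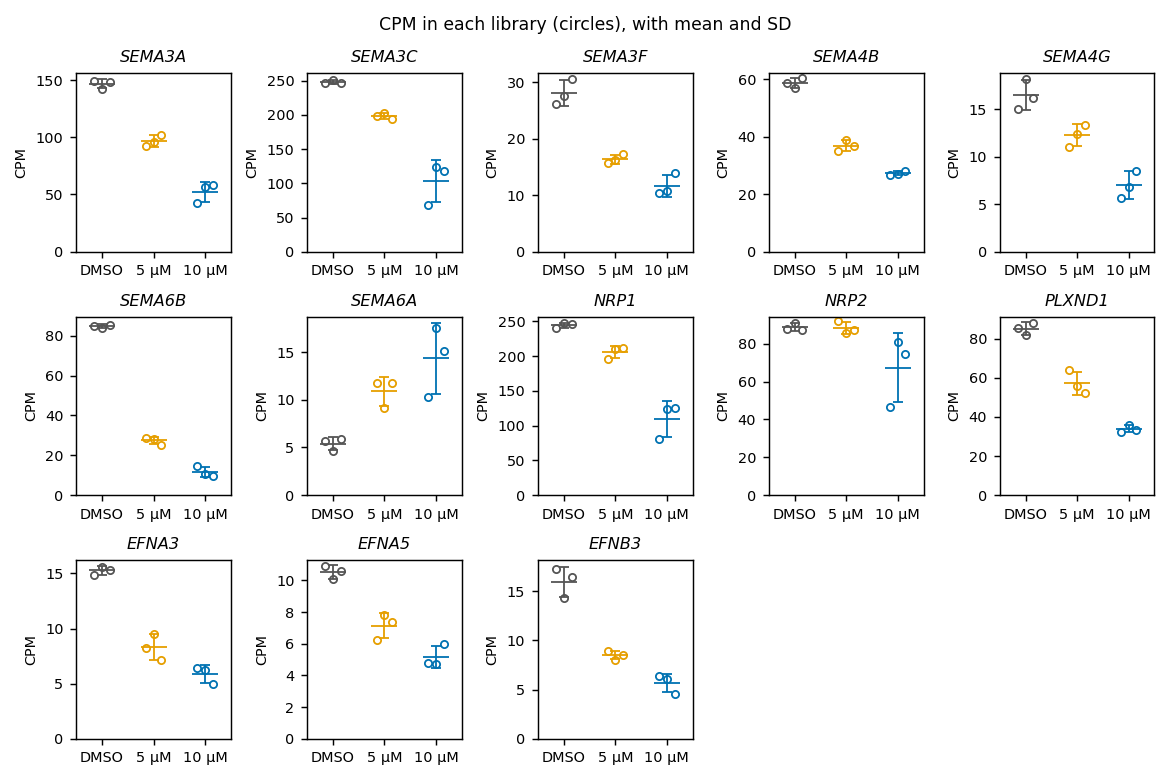
CPM in each library for the 13 members given in full for their size of change or as neuropilins; circles are libraries, bars the mean and SD (n = 3), and each panel has its own axis from 0. SEMA6B steps down from 84.0 to 85.5 CPM in DMSO to 9.46 to 14.5 CPM at 10 µM, SEMA6A steps up, and SEMA3C, NRP1 and NRP2 are lowest in 10 µM replicate 1.

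The neuropilins bind class 3 semaphorins and are also co-receptors of vascular endothelial growth factor. NRP1 (chr10:33177492-33336262) had 240.5, 247.5 and 245.4 CPM in DMSO, 195.7, 209.9 and 210.9 CPM at 5 µM, and 80.3, 123.2 and 125.0 CPM at 10 µM. Its levels at 10 µM were the lowest in all 3 libraries. It was not called at 5 µM (-0.25, SE 0.14, adjusted p = 0.331) and fell at 10 µM (-1.16, SE 0.15, adjusted p = 0.000248). Without 10 µM replicate 1 the change was -0.98.

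NRP2 (chr2:205681990-205798133) had 87.9, 91.0 and 87.2 CPM in DMSO, 92.0, 85.9 and 87.1 CPM at 5 µM, and 46.7, 80.7 and 74.6 CPM at 10 µM. The 10 µM libraries were below the rest, by most in replicate 1, and the difference was not called (-0.40, SE 0.17, adjusted p = 0.0904; -0.19 without that library). NRP1 made up 76.9% ± 0.33 (SD, n = 3) of the neuropilin level per kb in DMSO and 66.4% ± 1.4 at 10 µM. Whether the responses of NRP1 and NRP2 differ was not tested.

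Of the 9 plexins, 0 were called at 5 µM by edgeR, DESeq2 or limma-voom, against 2.72% lower and 2.14% higher over all genes by edgeR. At an unadjusted p under 0.05, 4 lay above DMSO (PLXNA2, PLXNA3, PLXNB1, PLXNB2) and 2 below (PLXNA1, PLXND1). At 10 µM, 2 were called lower (22.2%, against 10.5% of all genes tested). PLXND1, the receptor that SEMA3E binds without a neuropilin, lies at chr3:129555175-129606818. Its libraries held 85.4, 81.8 and 88.2 CPM in DMSO, 63.8, 55.6 and 52.1 CPM at 5 µM, and 32.5, 36.0 and 33.5 CPM at 10 µM. The level went down with each dose, and the ranges did not meet. At 5 µM the change of -0.57 (SE 0.090, adjusted p = 0.0034) is a 1.49-fold lower level, just under the fold limit, and it was called without DMSO replicate 2 (-0.60) or 5 µM replicate 1 (-0.66). At 10 µM it was -1.32 (SE 0.091, adjusted p = 5.58e-06), a 2.504-fold lower level.

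PLXNA1, a signalling partner of neuropilins, fell at 10 µM from 113.0 CPM ± 1.7 (SD, n = 3) to 59.0 CPM ± 17 (-0.94, SE 0.17, adjusted p = 0.00238), with 39.9 CPM in 10 µM replicate 1 and a value of -0.72 without it. PLXNB2, the plexin with the most RNA per kb and a receptor of class 4 semaphorins, had 223.3, 217.7 and 222.8 CPM in DMSO, 294.4, 310.1 and 286.1 CPM at 5 µM, and 208.1, 278.2 and 286.4 CPM at 10 µM. Its 5 µM libraries were above DMSO, with a fold of 1.34 that was not called (0.42, SE 0.11, adjusted p = 0.0384), and the 10 µM libraries spanned the DMSO level (0.22, or 0.35 without 10 µM replicate 1). PLXNB2 held 45.7% ± 0.40 of the plexin sum per kb in DMSO and 61.4% ± 0.66 at 10 µM, and PLXND1 13.1% ± 0.33 and 6.13% ± 0.86. The plexin sum was 66.7 CPM per kb ± 0.89 in DMSO, 72.9 ± 2.3 at 5 µM and 57.8 ± 9.3 at 10 µM. Without 10 µM replicate 1, in which PLXNA4 had 0 CPM, that gene of 1.74 CPM in DMSO was called lower (-1.16, adjusted p = 0.0349). PLXNB3 was called lower without 10 µM replicate 2 (-0.60, adjusted p = 0.0108) and not with all libraries (-0.50, adjusted p = 0.0143).

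**Figure D4:**
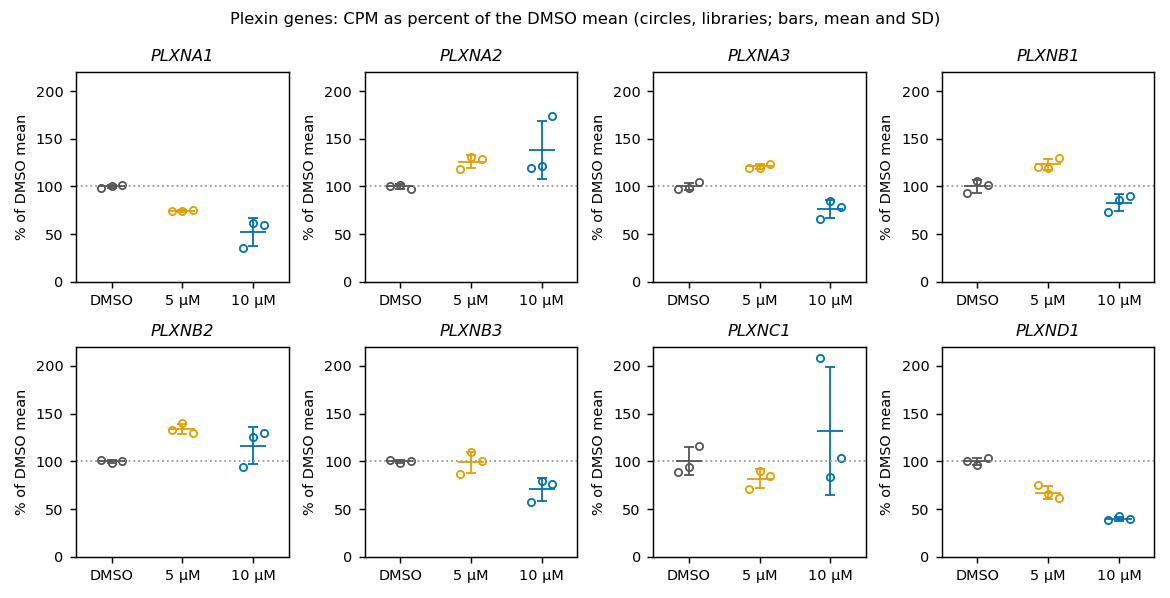
CPM of 8 plexin genes as percent of their DMSO mean (PLXNA4, at 1.74 CPM in DMSO, is left out); circles are libraries, and bars the mean and SD (n = 3). PLXND1 and PLXNA1 step down with dose, while PLXNA3 and PLXNB1 lie above the DMSO mean in all 5 µM libraries and below it in all 10 µM libraries.

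Comparing the doses directly, 7 of the 39 members were called lower at 10 µM than at 5 µM (17.9%, against 2.59% of all genes tested) and 0 higher (against 1.42%). The 7 were SEMA6B, SEMA3A, SEMA3C, SEMA4G, NRP1, PLXND1 and PLXNA3. For higher members the count was also 0 by DESeq2 and limma-voom, and 1 gene, EFNA1, had an unadjusted p under 0.05 in edgeR. SEMA6B differed the most (-1.24, SE 0.14, adjusted p = 0.000716), followed by SEMA3C (-0.95, SE 0.18, adjusted p = 0.012), NRP1 (-0.91, SE 0.14, adjusted p = 0.00489) and SEMA3A (-0.88, SE 0.11, adjusted p = 0.00168). The call of SEMA3C was lost without 5 µM replicate 1 (adjusted p = 0.0519) or 5 µM replicate 2 (adjusted p = 0.0551), and that of SEMA4G without 5 µM replicate 2 (adjusted p = 0.0559) or 5 µM replicate 3 (adjusted p = 0.0634). SEMA4G had -0.80 (adjusted p = 0.0134), and -0.03 with the counts of MRPL43 added, a sum made mostly of MRPL43 that cannot tell whether SEMA4G fell. Without 10 µM replicate 1, PLXNA3 was no longer called (-0.57, under the fold limit), and SEMA6A (0.59, adjusted p = 0.00559) and EFNB3 (-0.67, adjusted p = 0.00228) were called. Without 10 µM replicate 2, SEMA3E (-1.26, adjusted p = 0.0473), EFNB3 (-0.64, adjusted p = 0.0432) and PLXNB1 (-0.60, adjusted p = 0.0156) were called, and without 10 µM replicate 3, SEMA3F (-0.63, adjusted p = 0.00977), EFNA5 (-0.59, adjusted p = 0.0379) and PLXNB1 (-0.63, adjusted p = 0.0108) were.

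Among the ephrins, 2 of 5 A-type and 1 of 3 B-type genes fell at 10 µM, and 0 were called higher at either dose by edgeR. Over all genes tested, 10.5% were called lower at 10 µM, and 2.14% and 8.57% higher at 5 and 10 µM. The count of higher ephrins was also 0 by DESeq2 and limma-voom, and 1 gene, EFNB1, lay above DMSO with an unadjusted p under 0.05 in edgeR at each dose. EFNA3 had 14.9, 15.6 and 15.3 CPM in DMSO, 8.26, 9.49 and 7.12 CPM at 5 µM, and 6.45, 6.23 and 4.97 CPM at 10 µM. The 3 groups stayed apart, with the larger step between DMSO and 5 µM. The log2 fold change was -0.88 (SE 0.14, adjusted p = 0.0037) at 5 µM and -1.38 (SE 0.14, adjusted p = 7.32e-05) at 10 µM.

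EFNA5, a ligand studied in axon mapping (chr5:107376889-107670895), had 10.9, 10.1 and 10.6 CPM in DMSO, 6.24, 7.83 and 7.37 CPM at 5 µM, and 4.77, 4.73 and 5.97 CPM at 10 µM. Each dose lay below the one before it. The change was -0.56 at 5 µM (SE 0.14, adjusted p = 0.0328), a 1.47-fold lower level that missed the fold limit, and -1.03 at 10 µM (SE 0.14, adjusted p = 0.000441). EFNB3 (chr17:7705202-7711378) had 17.2, 14.3 and 16.5 CPM in DMSO, 8.89, 8.06 and 8.54 CPM at 5 µM, and 6.36, 6.10 and 4.61 CPM at 10 µM. It was called lower at 5 µM (-0.91, SE 0.14, adjusted p = 0.00311) and at 10 µM (-1.49, SE 0.14, adjusted p = 4.71e-05).

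EFNB2, the B-type ephrin of arterial endothelium with the highest level per kb of its type here, had 39.1, 40.2 and 36.3 CPM in DMSO, 43.5, 45.9 and 48.0 CPM at 5 µM, and 35.3, 54.6 and 54.9 CPM at 10 µM. It was not called (0.25, SE 0.15, adjusted p = 0.363, and 0.33, SE 0.15, adjusted p = 0.124), and 26.2% of its exonic length lies opposite another gene. The value at 10 µM was 0.50 (adjusted p = 7.68e-06) without 10 µM replicate 1, its lowest library, still under the fold limit. EFNB1 had changes of 0.21 and 0.26 and was not called either. The B-type sum stayed at 17.7 CPM per kb ± 0.60 (SD, n = 3) in DMSO, 17.7 ± 0.46 at 5 µM and 17.5 ± 2.4 at 10 µM, with EFNB3 going from 28.0% ± 2.7 of it to 10.3% ± 2.7.

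EFNA4, EFNA3 and EFNA1 lie in a row on the plus strand of chromosome 1, at chr1:155063731-155069553, chr1:155078872-155087538 and chr1:155127460-155134857, with gaps of 9.32 kb and 39.9 kb. EFNA3, in the middle, fell at both doses, and the genes on its sides were not called at either. EFNA4 had 10.1, 11.5 and 10.9 CPM in DMSO, 8.06, 9.28 and 10.3 CPM at 5 µM, and 12.9, 8.56 and 8.29 CPM at 10 µM. EFNA1, the ligand of EPHA2 in many tumours, had 28.4, 29.4 and 29.1 CPM in DMSO, 23.4, 22.5 and 21.1 CPM at 5 µM, and 36.6, 26.5 and 24.1 CPM at 10 µM. In both genes 10 µM replicate 1 was the highest library of all 9. Their log2 fold changes were -0.23 (SE 0.18, adjusted p = 0.491) and -0.37 (SE 0.14, adjusted p = 0.126) at 5 µM, and -0.13 (SE 0.18, adjusted p = 0.628) and 0.0057 (SE 0.14, adjusted p = 0.981) at 10 µM. With 10 µM replicate 1 left out, the values at that dose were -0.36 (adjusted p = 0.0261) for EFNA4 and -0.20 (adjusted p = 0.0435) for EFNA1, both under the fold limit. Whether EFNA3 differs from its neighbours in response was not tested. SEMA3F and SEMA3B, 78.5 kb apart on chromosome 3, likewise held one called and one uncalled gene at each dose.

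**Figure D5:**
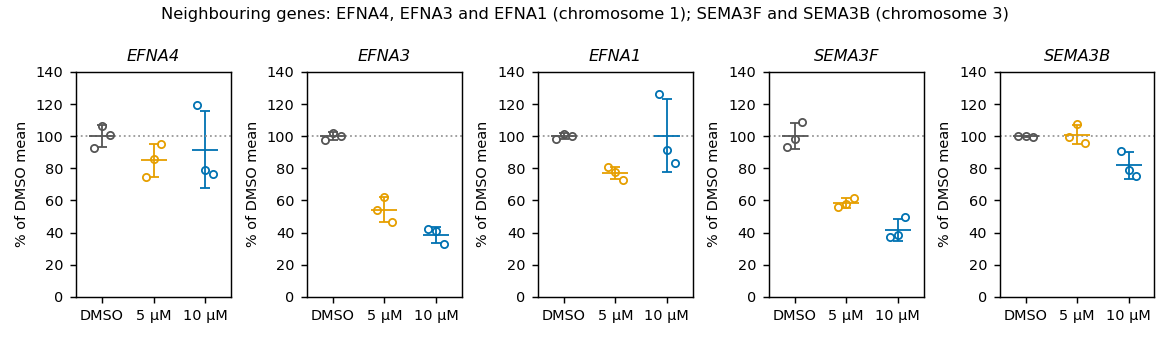
CPM as percent of the DMSO mean for genes that neighbour each other, EFNA4, EFNA3 and EFNA1 on chromosome 1 and SEMA3F and SEMA3B on chromosome 3; circles are libraries, and bars the mean and SD (n = 3). All TP-472 libraries of EFNA3 and SEMA3F lie below those of DMSO, while the 10 µM libraries of EFNA4 and EFNA1 lie on both sides of 100%.

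The promoters of the 3 neighbouring ephrin genes are shown because one gene of the row fell and the others were not called. Each window holds 250 bases before and 50 after the RefSeq start on the plus strand of GRCh38.p14, and capitals mark GC boxes (GGGCGG on either strand), a motif bound by SP1 and related factors. The windows are chr1:155063490-155063789 for EFNA4, chr1:155078587-155078886 for EFNA3 and chr1:155127626-155127925 for EFNA1.
EFNA4: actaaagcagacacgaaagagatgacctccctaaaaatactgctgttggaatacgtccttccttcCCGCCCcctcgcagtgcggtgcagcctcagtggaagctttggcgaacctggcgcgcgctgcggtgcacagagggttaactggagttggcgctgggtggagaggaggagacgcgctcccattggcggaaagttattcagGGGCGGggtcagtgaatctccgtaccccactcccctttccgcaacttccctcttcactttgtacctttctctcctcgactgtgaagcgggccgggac
EFNA3: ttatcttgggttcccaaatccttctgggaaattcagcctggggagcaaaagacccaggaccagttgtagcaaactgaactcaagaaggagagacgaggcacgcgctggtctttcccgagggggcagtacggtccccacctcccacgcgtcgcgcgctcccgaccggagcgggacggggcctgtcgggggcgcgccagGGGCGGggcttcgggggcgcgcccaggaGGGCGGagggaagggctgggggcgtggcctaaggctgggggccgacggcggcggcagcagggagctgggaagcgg
EFNA1: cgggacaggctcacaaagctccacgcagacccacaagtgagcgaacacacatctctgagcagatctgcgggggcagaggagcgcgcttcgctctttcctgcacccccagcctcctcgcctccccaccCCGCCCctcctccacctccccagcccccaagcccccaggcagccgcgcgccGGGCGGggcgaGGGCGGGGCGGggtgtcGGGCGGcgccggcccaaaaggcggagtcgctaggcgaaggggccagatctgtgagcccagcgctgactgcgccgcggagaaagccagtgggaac
The windows of EFNA4 and EFNA3 each hold 2 GC boxes, and that of EFNA1 holds 5, of which a pair overlap by a base. Their GC content is 58.3%, 69.3% and 71.7%. None of the 3 windows holds an AP-1 site (TGANTCA), an E-box (CACGTG), a TEAD site (CATTCC) or a TATA box (TATAAA). Whether promoter sequence bears on the calls was not tested.

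RefSeq windows were found for 36 of the 41 symbols, 57 windows in all, and not for SEMA6B, SEMA6A, SEMA3A, NRP1 and EFNB3. A GC box was in 68.4% of the member windows, against 45.0% of 35116 windows over all genes. A TATA box was in 3.51% (11.5% over all), an AP-1 site in 1.75% (7.71%), an E-box in 5.26% (7.26%) and a TEAD site in 14% (14%). Both strands were searched, windows of 1 gene can overlap, and a match is no more than a run of letters.

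The receptors of the ephrins and the partners of the semaphorins were read from lists of genes. Of 14 Eph receptors, 12 were tested, and 1 was called lower at 5 µM (EPHB3) while 3 were called lower and 1 higher at 10 µM. Over all genes tested, 2.72% were called lower and 2.14% higher at 5 µM, and 10.5% lower and 8.57% higher at 10 µM. The 1 higher call among 12 is near that last share. EPHA7 fell from 46.4 CPM ± 2.9 (SD, n = 3) in DMSO to 12 CPM ± 4.4 at 10 µM (-1.95, SE 0.23, adjusted p = 0.000168). EPHB3 went from 13.7 to 7.37 CPM (-0.89, adjusted p = 0.00187) and EPHA3 from 42.2 to 22.0 CPM (-0.94, adjusted p = 0.0114). In EPHA7, EPHB3 and EPHA3, 10 µM replicate 1 was the lowest library (7.04, 5.85 and 12.7 CPM). With a library left out, their changes shrank to as little as -1.68, -0.75 and -0.66. EPHB6, which has no kinase activity, was called higher at 10 µM from 0.485 to 1.11 CPM (1.197, adjusted p = 0.0294), a call that was lost without 10 µM replicate 3 (adjusted p = 0.0741) and without DMSO replicates 1, 2 or 3 (adjusted p = 0.104, 0.0851 and 0.0899). EPHA2, named after its values were seen because it is the receptor with the most RNA per kb (164.2 CPM per kb ± 1.9), was at 682.9 CPM ± 8.1 in DMSO and 763.5 CPM ± 39 at 10 µM and was not called (0.16, adjusted p = 0.0735).

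Of 18 co-receptors and VEGF partners, 17 were in the table and 14 tested, with 1 called lower and 1 higher at 5 µM, and 7 lower and 1 higher at 10 µM. The shares over all genes tested were 2.72% lower and 2.14% higher at 5 µM, and 10.5% and 8.57% at 10 µM. The smallest p-values at 10 µM among those that fell belonged to FLT1, a VEGF receptor (14.3 to 7.16 CPM, -0.99, adjusted p = 0.000123), PTK7, a pseudokinase (64.6 to 38.9 CPM, -0.73, adjusted p = 0.00016), and VEGFC, a growth factor of lymphatic vessels (66.7 to 40.8 CPM, -0.71, adjusted p = 0.00022). PTK7 was under the fold limit with the length and GC trend removed (-0.57). The gene that rose was KDR, the main VEGF receptor of endothelium, with 1.92 CPM ± 0.070 (SD, n = 3) in DMSO, 5.72 ± 2.2 at 5 µM and 10.9 ± 3.3 at 10 µM (1.58, adjusted p = 0.0119, and 2.5, adjusted p = 0.000287). Its call at 5 µM was lost without DMSO replicates 1, 2 or 3 and without 5 µM replicates 2 or 3 (adjusted p from 0.0511 to 0.0613), and by limma-voom (1.51, adjusted p = 0.0674). The call at 10 µM held under each of these.

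Cytoplasmic effectors of plexins and Eph receptors numbered 36, of which 34 were tested. At 5 µM 5 were called lower and 1 higher, and at 10 µM 8 lower and 2 higher. Of all genes tested, 2.72% were called lower and 2.14% higher at 5 µM, and 10.5% and 8.57% at 10 µM. DPYSL3 and DPYSL2, collapsin response mediators that pass on the SEMA3A signal, fell from 227.5 to 87.8 CPM (-1.37, adjusted p = 3.42e-06) and from 99.7 to 52.8 CPM (-0.92, adjusted p = 8.11e-06). FARP1, an exchange factor bound to plexins, fell from 74.8 to 23.6 CPM (-1.67, adjusted p = 5.97e-06), and 22.8% of its exonic length lies opposite another gene. The pair that rose at 10 µM were RND1 (2.18, adjusted p = 0.000276) and RND3 (0.90, adjusted p = 4.61e-05), small GTPases that bind plexins. RND1 had little RNA, with 0.61 CPM in DMSO and 2.8 CPM at 10 µM, while RND3 went from 29.5 to 55.3 CPM. Of 8 proteases that process these ligands and receptors, MMP14 was the single one called lower at 10 µM (243.3 to 131.5 CPM, -0.89, adjusted p = 6.27e-06). A single call among 8 is near the 10.5% called lower over all genes tested. The medians of the 4 lists at 10 µM were 0.11 (Eph receptors), -0.56 (co-receptors and VEGF partners), -0.19 (effectors) and -0.24 (proteases), beside 0.011 over all genes tested.

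The genes most like SEMA6B across the 9 libraries, by Pearson's r of log2 CPM, were PCOLCE (0.999), BCAM (0.998), HJURP (0.997), PLOD1 (0.997) and PFKL (0.997). These values describe 9 libraries in 3 groups that share one dose series. PCOLCE averaged 108.4, 51.7 and 31.3 CPM in the groups in order of dose, a smaller change than that of SEMA6B (-1.79 at 10 µM).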

How the data were processed

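RNA of 9 libraries from A375 cells (3 each of DMSO, 5 µM and 10 µM TP-472, 24 h) was analysed. The values that the authors deposited are expected counts from RSEM, by gene symbol and without scaling. The submitters' processing notes name hg38, Bowtie2 2.1.0 and RSEM 1.2.15; for the annotation, strand setting and filters, the sources used here give nothing. The protocol describes strand-specific libraries from oligo-dT selected RNA, the design text describes depletion of ribosomal RNA, and which was used could not be settled.

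Expected counts (42483091 to 51298130 per library, 10.6% to 13.8% of values not whole) were rounded and tested in R 4.3.3 with edgeR 4.0.16: filterByExpr at its defaults (16417 genes), TMM factors (0.957 to 1.029), 1 quasi-likelihood fit of 3 groups and Benjamini-Hochberg adjustment. A call needed a 1.5-fold difference or more with an adjusted p below 0.05. Standard errors were taken from F (size of the log2 change over its square root), and CPM uses TMM-scaled library sizes. The model was tested on simulated data. Coordinates, overlaps and exonic lengths are from GENCODE release 29 on GRCh38, and promoters from RefSeq (GRCh38.p14).

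Members called with a log2 fold change of at least 1 in size and 1 CPM, the neuropilins, and the highest member of each family per kb are given by library. Members and lists were chosen with earlier results of these data known. From each list the 3 called genes with the smallest p at 10 µM are named, and further called genes (EPHB6, KDR, RND1, RND3) were named after their values were seen. Alternatives used DESeq2 1.42.0, limma 3.58.1 (voom), other factors, filters and thresholds, a length and GC correction, and each library left out; adding the counts of genes on the opposite strand was chosen after seeing the data. The result for 1 marker gene is not reported here.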

Additional observations from a re-analysis of the deposited data

Results flagged for a closer look

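PLXNA3 and PLXNB1, receptors of class 3 and class 4 semaphorins, stood out because all 5 µM libraries lay above and all 10 µM libraries below every DMSO library. The pattern was looked for among the members only, and its share over all genes tested was not counted. PLXNA3 had 32.4, 32.8 and 34.8 CPM in DMSO, 39.9, 39.7 and 41.3 CPM at 5 µM, and 21.9, 28.2 and 26.2 CPM at 10 µM. Against DMSO it was called at neither dose (0.27, adjusted p = 0.108, and -0.39, adjusted p = 0.012), and between the doses it was called at -0.66 (SE 0.097, adjusted p = 0.00312). PLXNB1 had 25.6, 29.1 and 27.8 CPM in DMSO, 33.0, 32.9 and 35.7 CPM at 5 µM, and 20.1, 23.7 and 24.6 CPM at 10 µM. It too was called at neither dose (0.30, adjusted p = 0.0852, and -0.27, adjusted p = 0.0579), and between the doses the change was -0.57 (SE 0.098, adjusted p = 0.00751), a fold of 1.48 that is under the limit. With a trend in gene length and GC removed, the values at 10 µM against DMSO were -0.03 (adjusted p = 0.843) for PLXNB1 and -0.21 (adjusted p = 0.0381) for PLXNA3. In both genes 10 µM replicate 1 was the lowest library, and without it the changes between the doses were -0.57 and -0.49, both under the fold limit. PLXNB1 was called without 5 µM replicate 1 (-0.59), 5 µM replicate 2 (-0.59), 10 µM replicate 2 (-0.60) or 10 µM replicate 3 (-0.63).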

How the results depend on the processing

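The 14 members called lower at 10 µM were also called by DESeq2, limma-voom and the likelihood ratio test. They were called under each scaling and filter, and without each library. With the counts of MRPL43 added, SEMA4G was not called, but that sum could not have been called through SEMA4G alone. A fold of at least 2 left 11 of the 14. Other scalings moved the median of all genes by at most 0.041 (log2). Higher members at 5 µM numbered 1, against 2 with DESeq2, 3 in fits of only the groups compared, 2 with no fold limit, 2 with the length and GC trend removed, and 0 to 2 with a library left out. Higher members at 10 µM numbered 1, against 2 with no fold limit, 3 with the length and GC trend removed, and up to 2 (from 1) with a library left out. At 5 µM a fold of at least 2 left 1 of 6 lower members. Between the doses, lower members numbered 7, against 13 with no fold limit, 1 at a fold of at least 2 and 5 in the fit of only the groups compared. That edgeR fit lost the calls of SEMA3C (adjusted p = 0.0723) and SEMA4G (adjusted p = 0.0808). With a library left out, lower members numbered 6 to 10. Higher members between the doses numbered 0, or 1 without 10 µM replicate 1. With the length and GC trend removed, PLXND1 (-0.56) and PLXNA3 (-0.51) lost their calls between the doses, and EFNA3 and EFNB3 gained them. Against DMSO at 10 µM the same setting ended the call of PTK7 (-0.57) and moved the uncalled values of SEMA3B to -0.07, PLXNB1 to -0.03, PLXNA3 to -0.21, PLXNB3 to -0.24, PLXNB2 to 0.44, SEMA7A to -0.04 and EFNA4 to -0.37; the cause of these shifts was not tested.

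Uncalled values near 0 changed sign, and the cause was not tested. MRPL43 at 10 µM ranged from -0.0085 to 0.30 with a library left out. EFNA1 at 10 µM was -0.0087 with no filter, -0.019 with limma-voom, -0.013 with the replicate block, -0.11 with the length and GC trend removed, and -0.20 to 0.12 with a library left out. NRP2 at 5 µM was 0.0049 with upper-quartile factors and -0.037 to 0.013 with a library left out. With a library left out, EFNB2 between the doses ranged from -0.026 to 0.26, SEMA3B at 5 µM from -0.033 to 0.049, and SEMA7A between the doses from -0.0055 to 0.063. Same-numbered libraries did not deviate together (9 correlations from -0.049 to 0.032), 3 of 9 libraries matched best with their own number, and the replicate block gave 14 lower members at 10 µM and changed no other count of members; EPHB6 lost its call at 10 µM under it (adjusted p = 0.0631). SEMA4A, SEMA6D, PLXNA4 and EFNA2, all under 2 CPM, had standard errors of 0.88 to 1.035 at 10 µM, so a 1.5-fold change of theirs could not have passed the test with these libraries. For PLXNA4, listed at 0 in 10 µM replicate 1, the standard error was 0.43 without that library, where it was called, and limma-voom with all libraries called it too (-3.26, adjusted p = 0.0485).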

Other observations

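Slits, netrins, their receptors and related guidance families, 26 genes of which 23 were tested, were read from another list. At 5 µM 1 was called lower (2.72% of all genes tested were) and 2 higher (2.14%), with a median log2 fold change of 0.11. At 10 µM 4 were called lower (10.5% of all genes) and 2 higher (8.57%), with a median of -0.36. ROBO4, a Slit receptor family member best known in endothelium, fell, with 35.2 CPM ± 1.3 (SD, n = 3) in DMSO, 22.1 ± 1.9 at 5 µM and 18.1 ± 0.71 at 10 µM (-0.96, SE 0.088, adjusted p = 3.49e-05), and 16.9% of its exonic length lies opposite another gene. NTN1, the secreted ligand netrin, rose from 1.92 CPM ± 0.40 to 4.501 CPM ± 0.86 and 7.07 CPM ± 1.8 (1.88 at 10 µM, SE 0.24, adjusted p = 0.000297). UNC5C, a netrin receptor, was at 1.06 CPM ± 0.40 in DMSO and 0.0396 CPM ± 0.034 at 10 µM (adjusted p = 0.00129), where its counts are too few for its fold change to be read as a size.

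The targets of TP-472 were at 37.6 CPM (BRD9) and 88.1 CPM (BRD7) in DMSO and at 45.4 CPM and 77.0 CPM at 10 µM, and neither was called.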
